A study of Rattus norvegicus with 6 samples.

Results

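The facilitative glucose transporters of the SLC2 gene family were examined in the maternal thyroid of rats. Members were chosen by gene symbol, as 10 genes named from the family (Slc2a1, Slc2a2, Slc2a3, Slc2a4, Slc2a5, Slc2a6, Slc2a8, Slc2a10, Slc2a12 and Slc2a13). Of these, 9 had a row among the 15388 genes counted, and Slc2a2 was not analysed here. Thyroids came from adult Sprague-Dawley females, either non-pregnant (NP) or in late pregnancy (LP, day 18, counted from the vaginal plug as day 1). Polyadenylated RNA of 3 samples in each group was sequenced, with no transgene or treatment named for either group and no statement on whether tissue was pooled. The question put by the study was which genes of the maternal thyroid change in late pregnancy. The methods give 3 non-pregnant rats and 3 rats on day 18 as the source of thyroid tissue, without assigning rats to libraries. The samples are labelled as repeats, so p-values measure the spread between these samples, which may be technical.

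Most proteins of this family carry hexoses and related molecules across membranes down their concentration gradient, without spending energy. The classic plasma membrane glucose transporters are GLUT1 to GLUT4, encoded by Slc2a1 to Slc2a4, each with its own tissue range. The other members include a fructose transporter (GLUT5, Slc2a5) and a more distant branch of proteins that often reside on intracellular membranes (Slc2a6, Slc2a8, Slc2a10, Slc2a12 and the proton-coupled inositol transporter Slc2a13). Follicular cells of the thyroid take up glucose to fuel hormone synthesis, and thyrotropin is known to raise that uptake.

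The depth was 2752144 to 3449857 counted reads per sample, and a gene with 3 reads lay at 0.87 to 1.09 CPM (reads scaled to a common library size), which allows for counting error alone. Thyroglobulin (Tg) took 22.9% to 24.5% of the reads, and the markers of C cells (Calca) and parathyroid (Pth) were also abundant, with at least 21383 and 11334 reads in every sample. Log2 fold changes, LP against NP, ran from -0.94 to 0.48 for the 10 follicular markers, and the airway marker Scgb1a1 was up-regulated by the criteria given below, at 1 to 20 reads. The summed level of the 5 erythroid markers was 218 to 242 CPM in NP and 200.1 to 210.5 CPM in LP, with Hbb and Hba1 lower in LP (adjusted p = 0.00467 and 0.0332) and Slc4a1 higher (adjusted p = 0.0051). Replicates 2 and 3 of each group agree within the sampling noise of counting reads and were counted as 1 sample, so that every mean ± SD below has n = 2 per group. Replicate 1 of both groups stood apart from the others in smooth muscle genes, with 266 reads of Myh11 in NP replicate 1 against 1872 and 1897 in NP replicates 2 and 3, and 220 against 2110 and 1990 in LP. This level of 3 reads is per library total alone, and all other CPM values use library totals multiplied by TMM factors, which align the libraries on genes of little change. The quasi-likelihood test of edgeR was applied to LP against NP, with adjustment over 11738 genes that passed a filter on low counts. All 6 libraries entered this fit as separate samples, so that its SE and adjusted p-values do not count replicates 2 and 3 as 1. With replicates 2 and 3 summed, the genes with an adjusted p-value below 0.05 numbered 2541 of 12326 tested in place of 3168, and the calls of members and pathway genes that this ended are given beside the genes below.

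The members that differed most between the groups were Slc2a10 and Slc2a4, in opposite directions. Slc2a10 was at 65.3 ± 0.86 CPM in NP and at 6.58 ± 1.2 CPM in LP (SD, n = 2), and Slc2a4 was at 11.2 ± 0.65 CPM in NP and at 169 ± 4.5 CPM in LP. Slc2a1, with the largest number of reads of the family in NP, stood at 156 ± 19 CPM in NP and 161 ± 1.9 CPM in LP. The family was put forward with the low LP level of Slc2a10 already known, and the values of all members come from that same contrast. They are therefore given as a description, without p-values. Of the 8 members that passed the filter, 1 was up-regulated and 1 down-regulated by the criteria of the study (adjusted p-value below 0.05 together with a fold change above 2). Among all genes tested 4.9% were up-regulated and 0.537% down-regulated by the same criteria, 5.44% in all. Because the members were put forward on this contrast, nothing is read from these counts. The median log2 fold change of the 8 members was -0.023, and that of all genes tested was -0.0089.

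**Figure D1:**
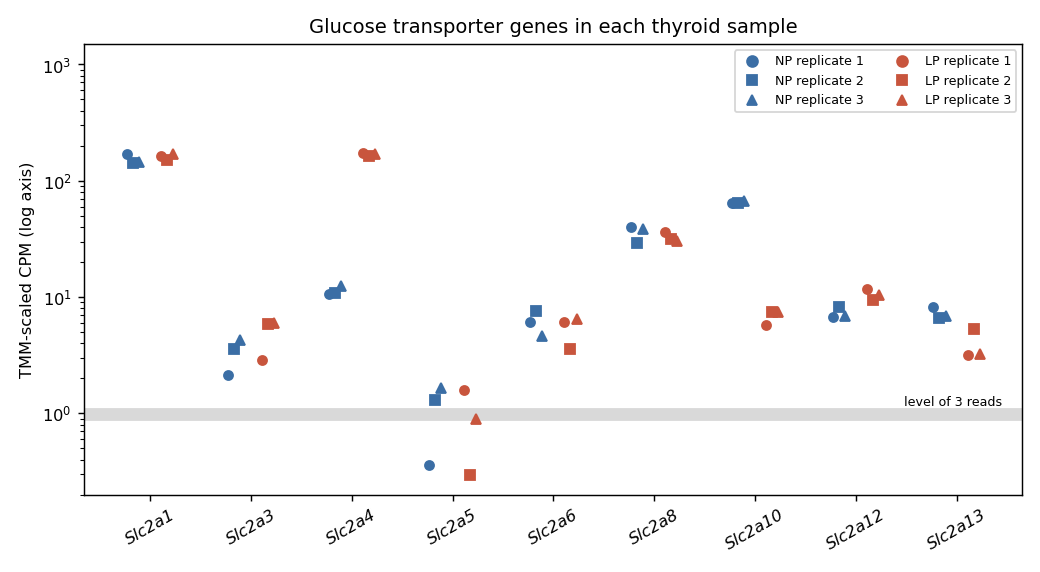
Level of each of the 9 transporter genes in each sample, as TMM-scaled CPM on a log axis. Blue points are the 3 NP samples, red points the 3 LP samples, and the grey band is the level of 3 reads. Slc2a10 lies at 64.5 to 67.3 CPM in NP and 5.75 to 7.42 in LP, Slc2a4 at 10.7 to 12.5 CPM in NP and 162 to 172 in LP, while the NP and LP points of Slc2a1 interleave.

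Slc2a1 (ENSRNOT00000064452) encodes GLUT1, the transporter of basal glucose uptake in many tissues, which is abundant in endothelium of blood-tissue barriers. Its counts were 474, 434 and 439 for NP replicates 1, 2 and 3, against 508, 505 and 571 for the LP replicates in the same order. On the CPM scale the groups overlapped, with the highest NP value (169.4) equal to the highest LP value at the precision given. Its log2 fold change was 0.081 (SE 0.072), and the sign differed between replicate 1 (-0.062) and replicates 2 and 3 together (0.16).

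Slc2a3 (ENSRNOT00000085447) encodes GLUT3, a high-affinity transporter best known from neurons. Its counts were low, with 6, 11 and 13 reads in NP, against 9, 20 and 20 in LP. In both groups replicate 1 had the lowest value, and the groups overlapped. The log2 fold change of 0.55 had an SE of 0.36, so that a difference was not detectable at this depth.

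Slc2a4 (ENSRNOT00000023256) encodes GLUT4, the insulin-responsive transporter of skeletal muscle, heart and fat. It had 30, 33 and 38 reads in NP, against 538, 546 and 570 reads in LP. Every LP sample lay far above every NP sample, and the 3 values within a group were close to each other. The fold change was 14.7 (log2 fold change 3.88, SE 0.088). It was of like size in replicate 1 (log2 ratio 4.00) and in replicates 2 and 3 together (3.83).

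Skeletal muscle markers moved with Slc2a4. Of the 15 listed markers with a row, 13 were tested and 12 were up-regulated by the criteria, against 4.9% of all genes. The summed level of the 15 markers was 26.4 to 76.0 CPM in the NP samples and 4694 to 4969 CPM in LP. Acta1 alone gave 0, 54.4 and 47.3 CPM of this sum in NP replicates 1, 2 and 3. Myh1, a fast myosin heavy chain, had 0 reads in every NP sample and 119, 105 and 109 in LP. Atp2a1, the calcium pump of fast muscle fibres, had 10, 11 and 13 reads in NP, against 3825, 3745 and 3782 in LP (log2 fold change 8.22, SE 0.086, adjusted p = 6.88e-20). The log2 fold changes of the 12 markers ran from 6.03 for Pvalb to 9.72 for Myh1, and each was larger than the 3.88 of Slc2a4. Acta1 was the exception among the tested markers, with 0 reads in replicate 1 of both groups, 166 and 144 in the other NP samples and 186 and 185 in the other LP samples. Of the markers below the filter, Casq1 was not higher in LP, with 0, 4 and 2 reads in NP, against 0, 2 and 1 in LP. Mylpf had 0 reads in every NP sample and 9, 15 and 13 in LP. The part of skeletal muscle in the Slc2a4 difference was not tested.

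Fat is the other tissue known for GLUT4, and most adipocyte markers were present in both groups at similar levels. None of the 6 adipocyte markers tested passed an adjusted p-value of 0.05 in edgeR or DESeq2, or an unadjusted p of 0.05 in edgeR, with log2 fold changes from -0.070 to 0.27. Their summed level was 168 to 176 CPM in NP and 174 to 202 CPM in LP. Adipoq, the adipocyte hormone adiponectin, had 73, 72 and 54 reads in NP, against 86, 88 and 78 in LP. Ucp1, the uncoupling protein of brown fat, did not pass the filter and had 12, 9 and 9 reads in NP, against 2, 4 and 4 in LP, without overlap (log2 fold change -1.70, SE 0.47, adjusted p = 0.0116 in edgeR without the filter).

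**Figure D2:**
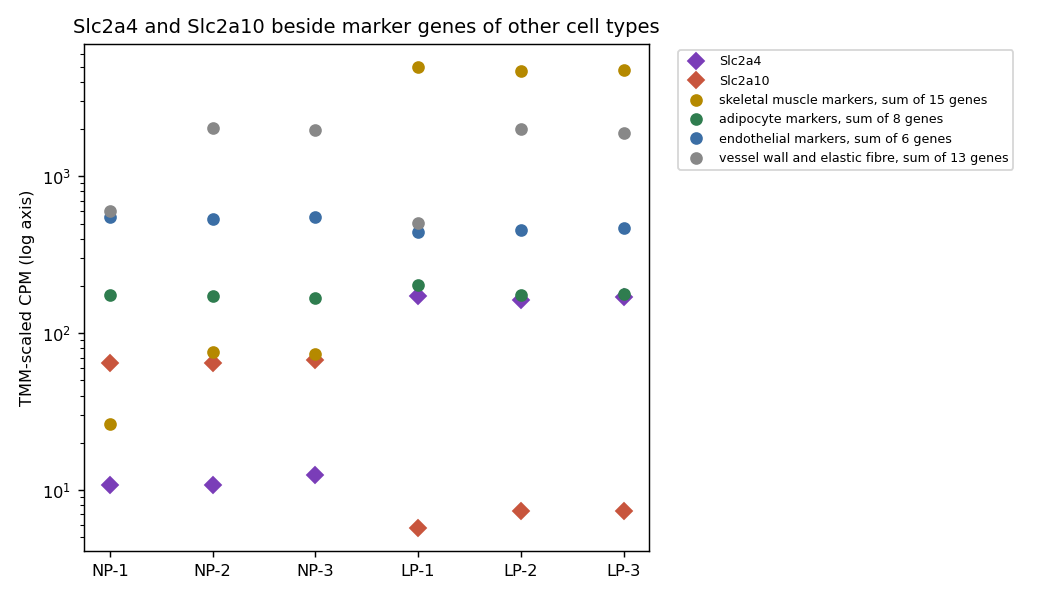
Slc2a4 and Slc2a10 (diamonds) beside summed marker genes (circles) in each sample, as TMM-scaled CPM on a log axis. The skeletal muscle sum goes from 26.4 to 76.0 CPM in NP, of which Acta1 gives 0 to 54.4, to 4694 to 4969 in LP. The adipocyte sum stays between 168 and 202, and the vessel wall sum is low in replicate 1 of both groups.

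Slc2a5 (ENSRNOT00000089314), the fructose transporter GLUT5 of the intestine and kidney, did not pass the filter on low counts. It had 1, 4 and 5 reads in NP, against 5, 1 and 3 in LP, around the level of 3 reads. The groups overlapped fully, and no difference could be seen at this depth.

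Slc2a10 (ENSRNOT00000030203) encodes GLUT10, an intracellular transporter of glucose and of dehydroascorbic acid, the oxidised form of vitamin C. Its loss in humans causes arterial tortuosity syndrome, a disorder of the elastic fibres of arteries. The gene had 181, 197 and 205 reads in NP, against 18, 25 and 25 reads in LP. The lowest NP count was thus 181 and the highest LP count 25, and in every LP sample the gene remained above the level of 3 reads. The fold change was 9.46 towards lower values in LP (log2 fold change -3.24, SE 0.13). The log2 ratio was -3.49 in replicate 1 and -3.15 in replicates 2 and 3 together. In bulk tissue, fewer cells of a type and less RNA per cell cannot be told apart.

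The levels of Slc2a10 were set beside those of vessel genes. Of the 6 endothelial markers tested, 4 had an adjusted p-value below 0.05 in edgeR with lower values in LP, against 11.7% of all genes. DESeq2 gave 3 below this cutoff. Log2 fold changes of the 4 ran from -0.59 for Emcn, a sialoprotein of capillary endothelium, to -0.23 for Tie1, an endothelial receptor. The other 2, Vwf and Cdh5, had log2 fold changes of 0.15 and 0.014 (adjusted p = 0.353 and 0.93 in edgeR). The summed level of the 6 endothelial markers was 531 to 553 CPM in NP and 443 to 468 CPM in LP. The summed level of the 13 vessel wall and elastic fibre genes was 603 CPM in NP replicate 1. In NP replicates 2 and 3 it was 2034 and 1984 CPM. Not all genes of this list were low in NP replicate 1. The smooth muscle gene Myh11 was at 95.1 CPM there, against 613 and 623 CPM, and fibrillin (Fbn1) at 36.5, against 53.7 and 53.5 CPM. Elastin (Eln) was at 70.4 CPM, against 72.7 and 65.7 CPM. Slc2a10 was at 64.7, 64.5 and 67.3 CPM in the NP samples. In LP the vessel wall sum was 507 CPM in replicate 1 and 1992 and 1882 CPM in the others, with Slc2a10 at 5.75, 7.41 and 7.42 CPM. The part of endothelial cells in the Slc2a10 difference was not tested.

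The other distant members varied less. Slc2a8 (ENSRNOT00000022327), an intracellular transporter known from testis and brain, had 112, 90 and 117 reads in NP, against 114, 107 and 103 in LP. Its groups overlapped, and the log2 fold change was -0.13 (SE 0.12). Slc2a6 (ENSRNOT00000008034), a lysosomal member known from leukocytes, had 17, 23 and 14 reads in NP, against 19, 12 and 22 in LP. Its groups overlapped too, with a log2 fold change of -0.18 (SE 0.30) that changed sign when LP replicate 2 was left out (0.054) and when NP replicate 2 was left out (0.0094). The summed level of the 8 leukocyte markers was 51.5 to 60.3 CPM in NP and 59.9 to 61.6 CPM in LP.

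Slc2a12 and Slc2a13 were low in reads, and their groups did not overlap on the CPM scale. Slc2a12 (ENSRNOT00000015566), a transporter of insulin-sensitive tissues, had 19, 25 and 21 reads in NP, against 37, 32 and 35 in LP, with a log2 fold change of 0.53 (SE 0.21). Slc2a13 (ENSRNOT00000021153), the myo-inositol transporter best known from brain, had 23, 20 and 21 reads in NP, against 10, 18 and 11 in LP, with a log2 fold change of -0.86 (SE 0.28). With Slc2a4 and Slc2a10, the groups did not overlap for 4 of the 8 members that passed the filter, against 40.1% of all genes tested. An adjusted p-value below 0.05, with no cutoff on the fold change, was found for 3 of the 8 members, against 27% of all genes tested. The member that adds to Slc2a4 and Slc2a10 in this count was Slc2a13. Its call was lost when NP replicate 1, 2 or 3, or LP replicate 1 or 3, was left out, with replicates 2 and 3 summed and with DESeq2. Without LP replicate 2 its log2 fold change was -1.15, past the 2-fold cutoff. As for the earlier counts of members, nothing is read from the counts of this paragraph.

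**Figure D3:**
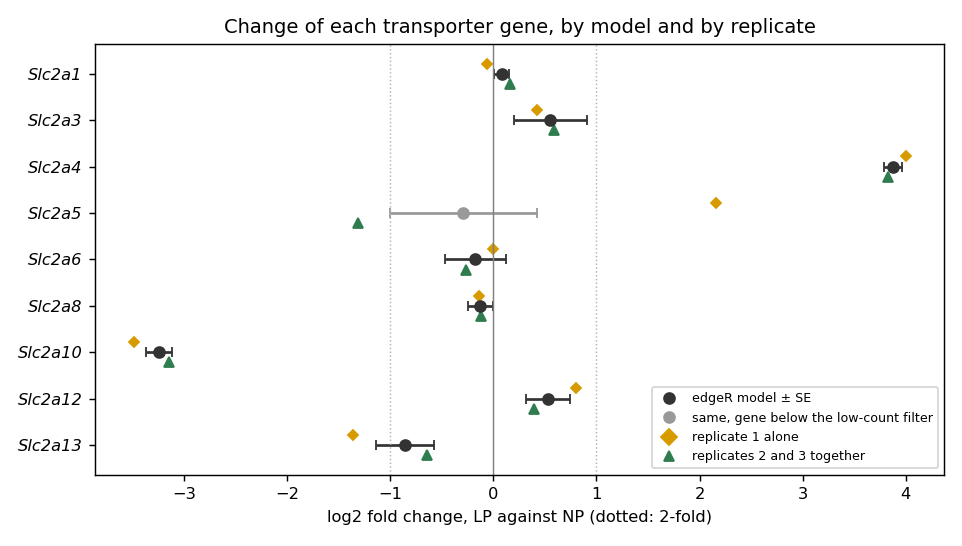
Log2 fold change of each member, LP against NP, from the edgeR model with its standard error (circles), in replicate 1 alone (diamonds) and in replicates 2 and 3 together (triangles). Slc2a4 (3.88) and Slc2a10 (-3.24) lie outside the dotted lines of a 2-fold change in all 3 estimates, and the estimates of Slc2a5, at 1 to 5 reads, scatter on both sides of 0.

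The reads of the family as a whole were then compared. The 9 genes had 863, 837 and 873 reads together in NP and 1258, 1266 and 1360 in LP, which gives 294 ± 20 CPM for NP and 396 ± 8.8 CPM for LP (SD, n = 2), a ratio of 1.34. Without Slc2a4 and Slc2a10, the sum of the other 7 members was 218 ± 21 CPM in NP and 220 ± 5.5 CPM in LP, a ratio of 1.01. Slc2a10 contributed 22.2% ± 1.8 (SD, n = 2) of the family's reads in NP and 1.67% ± 0.34 in LP. The share of Slc2a4 was 3.81% ± 0.47 in NP and 42.6% ± 0.17 in LP. For Slc2a1, whose own level was similar in the groups, the share was 53.0% ± 2.7 in NP and 40.7% ± 0.39 in LP. These are shares of reads and not of transcripts, because transcript lengths were not used here, and they do not rank the levels of different genes.

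**Figure D4:**
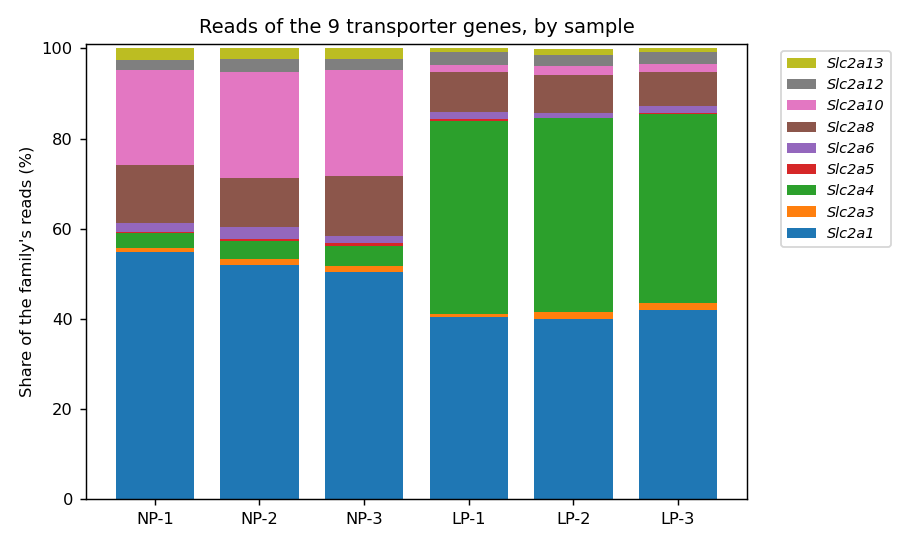
Share of the family's reads taken by each of the 9 transporter genes, in percent, for each sample. Slc2a10 takes 21.0% to 23.5% in NP and 1.43% to 1.97% in LP, and Slc2a4 takes 3.48% to 4.35% in NP and 41.9% to 43.1% in LP.

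Genes with the pattern closest to that of Slc2a10 or Slc2a4 over the 6 samples were named by the root mean square difference of log2 CPM, each gene being centred on its own mean. The nearest genes to Slc2a10 were Fmo2 (difference 0.30), Snx22 (0.60), Eva1c (0.64), Zbtb16 (0.67) and Mro (0.71). Fmo2 had 128, 125 and 107 reads in NP, against 12, 25 and 13 in LP. Among the nearest genes to Slc2a4 were Plin4 (0.094), Ddit4l2 (0.10), Smtnl1 (0.15) and Sypl2 (0.16). Plin4 had 23, 27 and 25 reads in NP, against 399, 426 and 412 in LP. The distances were smaller for Slc2a4 than for Slc2a10. However, Slc2a10 had the lowest log2 fold change of all genes tested (-3.24), and fewer genes were down-regulated than up-regulated by the criteria (63 against 575). Nothing is therefore read from this difference in distance. Likeness over 6 samples in 2 groups mostly reflects the contrast between the groups.

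The other listed SLC2 genes and sodium-coupled glucose and inositol transporter genes had few reads where they had a row. Those without a row could not be judged. Slc2a9, a urate transporter of the same family that was not among the members, had 7, 6 and 7 reads in NP, against 5, 8 and 10 in LP, and did not pass the filter. Of 8 listed sodium-coupled glucose and inositol transporter genes of the SLC5 family, which move their substrates against the gradient, 3 had a row and none passed the filter. Their counts ran from 0 to 6 reads, so that differences were not detectable at this depth.

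Hand-written lists held other glucose carriers, genes that act on glucose after its entry, the insulin pathway, regulators of the transporters, ascorbate genes and vessel wall genes. Across these 8 pathway lists, 78 genes were tested, of which 9 were up-regulated and 0 down-regulated by the criteria in edgeR, against 4.9% and 0.537% of all genes. DESeq2 also called 9 up and 0 down, and without a cutoff on the fold change edgeR gave an adjusted p-value below 0.05 for 25 genes with higher and 10 with lower values in LP, against 15.3% and 11.7% of all genes.

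Hexokinases trap glucose in the cell by phosphorylation, and those tested differed by less than 2-fold. Hk2, an isoform of insulin-sensitive tissues, rose by a log2 fold change of 0.42 (SE 0.068, adjusted p = 0.000129), from 359, 318 and 336 reads in NP to 480, 506 and 525 in LP. Hk1, the broadly expressed isoform, fell by 0.26 on the log2 scale (SE 0.062, adjusted p = 0.0043). The other 5 tested genes of this list did not pass, among them Galk1 (galactokinase, log2 fold change 0.21, adjusted p = 0.0887) and Slc37a4 (the glucose 6-phosphate carrier of the endoplasmic reticulum, 0.22, adjusted p = 0.0747).

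Glycolysis was the list with the most calls. Of 17 genes tested for glycolysis and lactate, 7 were up-regulated and 0 down-regulated by the criteria, against 4.9% and 0.537% of all genes. An adjusted p-value below 0.05 was found for 10 with higher and 2 with lower values in LP, against 15.3% and 11.7% of all genes. The median log2 fold change was 0.35, against -0.0089 for all genes tested. Eno3, the muscle enolase, had 0, 4 and 2 reads in NP, against 66, 74 and 73 in LP (log2 fold change 4.92, SE 0.35, adjusted p = 6.2e-09). Pgam2, the muscle phosphoglycerate mutase, rose by a log2 fold change of 3.87 (SE 0.36, adjusted p = 2.4e-07). Pfkm, the muscle phosphofructokinase, rose by 3.18 (SE 0.15, adjusted p = 3.05e-11), from 15, 35 and 29 reads to 232, 301 and 265. Slc16a1, a monocarboxylate transporter that carries lactate, rose by 2.40 (SE 0.18, adjusted p = 1.29e-08).

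The remaining genes past the criteria in this list, named after their values were seen, were Aldoa, Pkm and Ldhb, with log2 fold changes of 2.14, 1.16 and 1.14. Slc16a3, another lactate carrier, had a log2 fold change of -0.041 (adjusted p = 0.721), and Ldha, a lactate dehydrogenase subunit, one of 0.19 (adjusted p = 0.147 in edgeR, and 0.0219 with the replicate number as a block). Eno3, Pgam2 and Pfkm are isoforms known from muscle, and the skeletal muscle markers moved in the same samples, as given above. The part of muscle in these differences was not tested. Pfkl (log2 fold change 0.18, adjusted p = 0.0215) and Pgam1 (-0.19, adjusted p = 0.0198) missed the cutoff with replicates 2 and 3 summed (adjusted p = 0.0985 and 0.106), with DESeq2 (adjusted p = 0.0913 and 0.0845) and in several fits without 1 sample. Tpi1, a glycolytic gene with near-identical copies elsewhere in the genome, had 0 to 2 reads, and counts of genes with such copies are uncertain.

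The insulin pathway, which moves GLUT4 to the cell surface, had no gene past the 2-fold criteria. Of 21 genes tested, 0 passed the criteria in edgeR and in DESeq2, and 11 had an unadjusted p below 0.05 in edgeR, against 36.7% of all genes. An adjusted p-value below 0.05 was found for 5 with higher and 4 with lower values in LP, against 15.3% and 11.7% of all genes. Akt2, the kinase of insulin-stimulated glucose uptake, rose by a log2 fold change of 0.44 (SE 0.062, adjusted p = 3.26e-05). Tbc1d4, the AKT substrate that restrains GLUT4 vesicles, rose by 0.49 (SE 0.10, adjusted p = 0.00177). Irs1, an adaptor of the insulin receptor, had a log2 fold change of 0.65 (SE 0.18, adjusted p = 0.0131), which missed the cutoff without NP replicate 3 (adjusted p = 0.0649), without LP replicate 3 (adjusted p = 0.068) and with DESeq2 (adjusted p = 0.0934). For Pik3ca, a catalytic subunit of PI3 kinase, it was -0.48 (SE 0.14, adjusted p = 0.015), which missed the cutoff without NP replicate 3 (adjusted p = 0.0694), LP replicate 2 (adjusted p = 0.078) or LP replicate 3 (adjusted p = 0.051) and with DESeq2 (adjusted p = 0.109). The other lower genes were Irs2 (log2 fold change -0.41, adjusted p = 2.13e-05), Vamp2 (-0.30, adjusted p = 0.00154) and Myo1c (-0.25, adjusted p = 0.00192). They stayed below the adjusted p cutoff in all 15 alternatives that gave a fold change. Sort1, which sorts GLUT4 into its vesicles, and Akt1 did not pass, with log2 fold changes of 0.057 (adjusted p = 0.451) and 0.097 (adjusted p = 0.216).

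Among 15 tested regulators of glucose transporter genes and proteins, 2 were up-regulated by the criteria, against 4.9% of all genes. An adjusted p-value below 0.05 was found for 7 with higher and 1 with lower values in LP, against 15.3% and 11.7% of all genes. The lower one was Txnip, a protein that restrains glucose uptake and had the most reads of this list, at 3690, 4118 and 4044 reads in NP, against 3301, 3598 and 3698 in LP (log2 fold change -0.31, SE 0.0365, adjusted p = 3.83e-06). Mef2c, a transcription factor of the MEF2 family known to act on the Slc2a4 promoter in muscle, had 67, 69 and 69 reads in NP, against 359, 344 and 359 in LP (log2 fold change 2.22, SE 0.085, adjusted p = 1.21e-12). Prkaa2, a catalytic subunit of the energy sensor AMPK that is abundant in muscle, had 14, 17 and 16 reads in NP, against 79, 74 and 72 in LP (log2 fold change 2.10, SE 0.19, adjusted p = 1.22e-07). The skeletal muscle markers moved in the same samples, and the part of muscle in the Mef2c and Prkaa2 differences was not tested. Mef2d rose by 0.65 (SE 0.081, adjusted p = 7.42e-06). Ppargc1a, a coactivator of oxidative metabolism, had a log2 fold change of 0.54 (SE 0.18, adjusted p = 0.0309), which missed the cutoff without NP replicate 3 (adjusted p = 0.141), LP replicate 1 (adjusted p = 0.108) or LP replicate 2 (adjusted p = 0.0795). The cutoff was also missed with replicates 2 and 3 summed (adjusted p = 0.0673), with library totals alone (adjusted p = 0.0541) and with DESeq2 (adjusted p = 0.184). The hypoxia factor Epas1 and the GLUT1-binding protein Gipc1 did not pass, with log2 fold changes of 0.070 (adjusted p = 0.403) and 0.0098 (adjusted p = 0.943).

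Ascorbate genes were examined because GLUT10 carries dehydroascorbic acid. None of the 5 tested passed an adjusted p-value of 0.05 in edgeR or DESeq2, and none had an unadjusted p below 0.05 in edgeR. Their log2 fold changes ran from -0.11 to 0.22. The sodium-coupled ascorbate transporters Slc23a1 and Slc23a2 had log2 fold changes of -0.057 (SE 0.11) and 0.096 (SE 0.098). Slc23a2 had 131, 127 and 132 reads in NP, against 131, 159 and 173 in LP, and the groups overlapped on the CPM scale.

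Of the 13 vessel wall and elastic fibre genes tested, 0 passed the criteria in edgeR and in DESeq2, and 5 had an unadjusted p below 0.05 in edgeR (36.7% of all genes). Tgfbr2, a receptor of TGF-beta, fell by 0.52 on the log2 scale (SE 0.079, adjusted p = 7.28e-05), and Fbn1, the microfibril protein fibrillin, rose by 0.50 (SE 0.11, adjusted p = 0.0025). Tgfbr1 had a log2 fold change of -0.31 (SE 0.092, adjusted p = 0.018) and elastin (Eln) one of 0.23 (SE 0.071, adjusted p = 0.0233). The adjusted p-value of Tgfbr1 rose to 0.0501 without NP replicate 1, 0.0633 without NP replicate 3 and 0.0675 without LP replicate 3, and was 0.181 with DESeq2. That of Eln rose to 0.126 without NP replicate 3 and 0.123 without LP replicate 3, and was 0.0629 with replicates 2 and 3 summed, 0.106 with library totals alone and 0.206 with DESeq2. The smooth muscle genes Myh11 and Tagln had log2 fold changes of -0.050 (SE 0.56) and -0.057 (SE 0.61), with low values of replicate 1 in both groups. With the replicate number as a block, Acta2, a smooth muscle actin, went from an adjusted p of 0.872 to 0.00542 (log2 fold change -0.14) and Ltbp1, a TGF-beta binding protein, from 0.0613 to 0.0246 (-0.30).

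**Figure D5:**
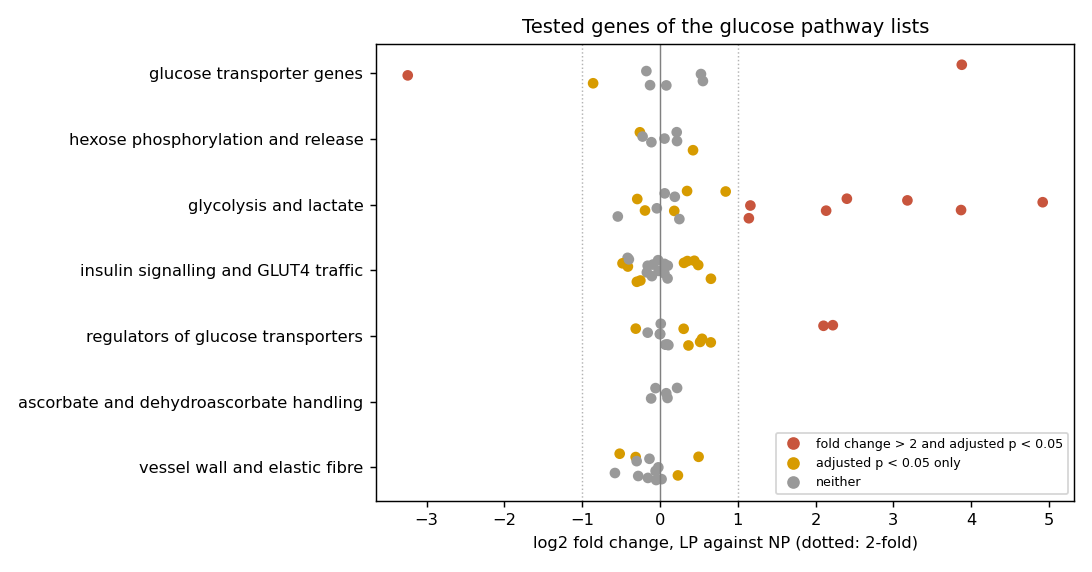
Log2 fold change, LP against NP, of every tested gene of the transporter family and of 6 pathway lists (the other 2 lists had no tested gene). Red points passed both criteria, yellow points the adjusted p-value alone, grey points neither. The red points are 2 transporters on opposite sides, 7 glycolysis genes and 2 regulators, and the points of the ascorbate list lie between -0.11 and 0.22.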

How the data were processed

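Per the labels and the methods, TopHat 1.4.0 and the build rn5 were used by the authors for alignment, and HTSeq-count on Ensembl gene models (release 81) gave the deposited values, raw read counts per gene, without normalization. How 1 transcript identifier per gene was chosen, and whether counting used strand, is not given in the sources used here. DESeq, the tool of the authors, was replaced by edgeR 4.0.16 in R 4.3.3 (glmQLFit and glmQLFTest, TMM, default low-count filter, Benjamini-Hochberg adjustment over 11738 genes). The members, gene lists and tests were chosen with earlier results of these data known. SE is the absolute log2 fold change over the square root of F. Values of genes with too few reads for the filter come from an unfiltered run. In a chi-square comparison of sample pairs (genes with 10 or more reads per pair), replicates 2 and 3 gave 1.02 per degree of freedom in NP (p = 0.111) and 0.995 in LP (p = 0.667), against 3.7 to 4.11 for pairs with replicate 1. NP and LP samples of the same number had correlated deviations from the group mean (correlation across genes 0.493, 0.223 and 0.192). Samples of different number were not compared in this way, so the values cannot show that replicates 2 and 3 pair by number. The number was taken to pair the samples as an assumption, on which the values with a replicate block rest. This block was an alternative. Named genes were all members, up to 4 genes of each pathway list with the largest change among those with an adjusted p-value below 0.05, up to 2 of the highest count that missed it, up to 4 markers of the highest count per list, and the 5 nearest patterns among genes with a mean of at least 20 reads (prior count 2). Some genes outside this rule (Txnip, Pfkl, Pfkp, Pgam1, Irs2, Vamp2, Myo1c, Acta2, Ltbp1, Ucp1, Myh1, Pvalb, Acta1, Mylpf, Casq1, Emcn, Vwf) were named after their values were seen. The alternatives were a block, each sample left out, replicates 2 and 3 summed, other filters, other normalizations, DESeq2 1.42.0, a test against a 2-fold change and an adjusted p-value of 0.01. The steps were tested on simulated data. No promoter of Slc2a10, Slc2a4 or Slc2a3 and no coordinates are given. Results of a few genes that these rules name are not reported here.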

Additional observations from a re-analysis of the deposited data

How the results depend on the processing

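The calls of Slc2a4 and Slc2a10 were the same under all 15 alternatives that gave a fold change, with log2 fold changes of 3.81 to 3.95 and -3.31 to -3.14. This describes the processing alone, because the family was put forward on this contrast in these same samples. The number of members past the criteria was 2, or 3 without LP replicate 2, where Slc2a13 was added. With the replicate block it was 2, that of pathway list genes 9 and that of all genes 641, against 638. The block brought Acta2, Igf1r, Ldha, Ltbp1 and Slc16a7 below an adjusted p-value of 0.05 and changed no other call of the members or pathway lists. All genes past the criteria numbered 315 when genes under a mean of 50 reads were left out and 389 with the fold change tested against 2. Fewer genes were tested in the former, and the latter asks more of each gene. Without a cutoff on the fold change, 3168 genes passed in edgeR and 1922 in DESeq2, and the cause was not tested. Pathway list genes past the criteria numbered 6 to 9. Library totals without TMM moved the median of all genes by -0.072 on the log2 scale. For Slc2a3, Slc2a5, Slc2a6, Slc2a12 and Slc2a13, with a mean of 3.17 to 28.2 reads per sample, the depth limits what could be detected.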
